A study of Rattus norvegicus with 9 samples.

Results

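Nerve and neurotrophin genes of the rat bladder are described here. They are 8 genes, chosen by name, with earlier results of these data known and no rule on measured values: Stmn2, Uchl1, Prph, Gap43, Tubb3, Bdnf, Ngfr and S100b. All non-control probes whose accession maps to them were taken, which gave 10 probes of the 30367 non-control probes on the array and 8 of its 15168 named genes. The samples are total RNA from bladders of female rats, hybridised to 9 Agilent arrays with 1 colour, 3 arrays per title group, all at 3 weeks. The first group had partial bladder outlet obstruction (pBOO) and tolterodine, a blocker of muscarinic acetylcholine receptors. The second had pBOO alone, made by tying off the proximal urethra over a catheter, and the third had a sham operation without the tie. Strain, age and drug dose are not given in the labels used here. The labels state 5 specimens per group but not whether an array carries 1 animal or a pool, so p-values measure the spread between these arrays, which may be technical. The letters by which the protocol names obstruction and sham surgery are crossed with the codes those arrays carry. Groups here are as titled. Exchanging these names would turn the sign of pBOO over sham and would swap the comparisons of the tolterodine group.

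The bladder wall is supplied by parasympathetic, sympathetic and sensory axons. The cell bodies of most of them lie outside the bladder, so the tissue's RNA holds mainly what Schwann cells, muscle, urothelium and any local ganglion cells make, plus transcripts carried in axons. Neurotrophins are secreted proteins that bind Trk receptor kinases and the shared receptor Ngfr, and they maintain sensory and sympathetic neurons. GDNF family ligands act in the same way through GFRA co-receptors and the kinase Ret.

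A level below is the log2 processed signal minus the 75th percentile of its array, so 0 is a spot at that percentile. Levels of different probes are not compared, because probes differ in brightness. The 75th percentile lay between 523 and 1441 intensity units, and 72.1% to 80.1% of spots were well above background. Fold changes are log2 differences of group means from 1 limma fit over 11047 genes, with Benjamini-Hochberg adjustment over all of them and a threshold of 0.05. Of the members 6 entered that fit. Uchl1 was tested with its flagged spots kept, and Bdnf was too dim to test.

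The array sham 1 stood apart from the other sham arrays, which correlated with each other at 0.994 over genes. Its own correlations were 0.973, 0.966 and 0.968 with tolterodine 1, 2 and 3, beside 0.966 with sham 2 and 0.976 with sham 3. Whether sham 1 holds the sample its title names was not tested. Stmn2 was lower in sham 1 than in the mean of sham 2 and sham 3 by a log2 difference of -4.70. The same difference was -2.53 for Prph, -1.42 for S100b, -0.74 for Ngfr, -0.13 for Gap43 and 0.64 for Tubb3. Over 10619 genes, 5.31% were lower in sham 1 by more than 1 log2 unit and 1.42% were higher by that much. Part of the adipocyte markers moved with it. Sham 1 had a summed signal of 10.5 over 5 of them, in multiples of the 75th percentile, against 24.6 for sham 2 and 21.1 for sham 3. Adipoq, the adipocyte hormone adiponectin, was lower in sham 1 by a log2 difference of -6.93. For the other adipocyte markers summed, it was -4.71 for Retn, -2.32 for Cfd, -0.27 for Pparg and 0.04 for Lpl. Mast cell markers had a summed signal of 0.585 in sham 1, against 1.81 and 1.46 in sham 2 and 3. Of those summed, Ms4a2 differed by -2.33, Cma1 by -1.78, Cpa3 by -1.54 and Hdc by -1.07. Kit differed by -0.58, Tpsb2 by -0.04 and Tpsab1 by 0.12. Krt20, a keratin of the bladder lining, had a level of -1.94 in sham 1, against 1.31 and 1.05. The part of this in the nerve genes was not tested. Values without sham 1 are given where it changed a call or moved a value of a member, and for some list counts. Some other list counts moved as well and are not given. The genes named from the lists in pBOO over sham kept their calls without it. Scan times form 3 sets. Scan 1 holds tolterodine 1 and 2 with sham 2 and 3, scan 2 holds the pBOO arrays with sham 1, and scan 3 holds tolterodine 3 alone. No scan holds both tolterodine and pBOO arrays, so a fit with scan as a block links these groups only through sham 1 and the other sham arrays. In fits without that block, tolterodine over pBOO cannot be told apart from a difference between scans. The same holds for pBOO over sham without sham 1, since the pBOO arrays then share no scan with a sham array.

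**Figure D1:**
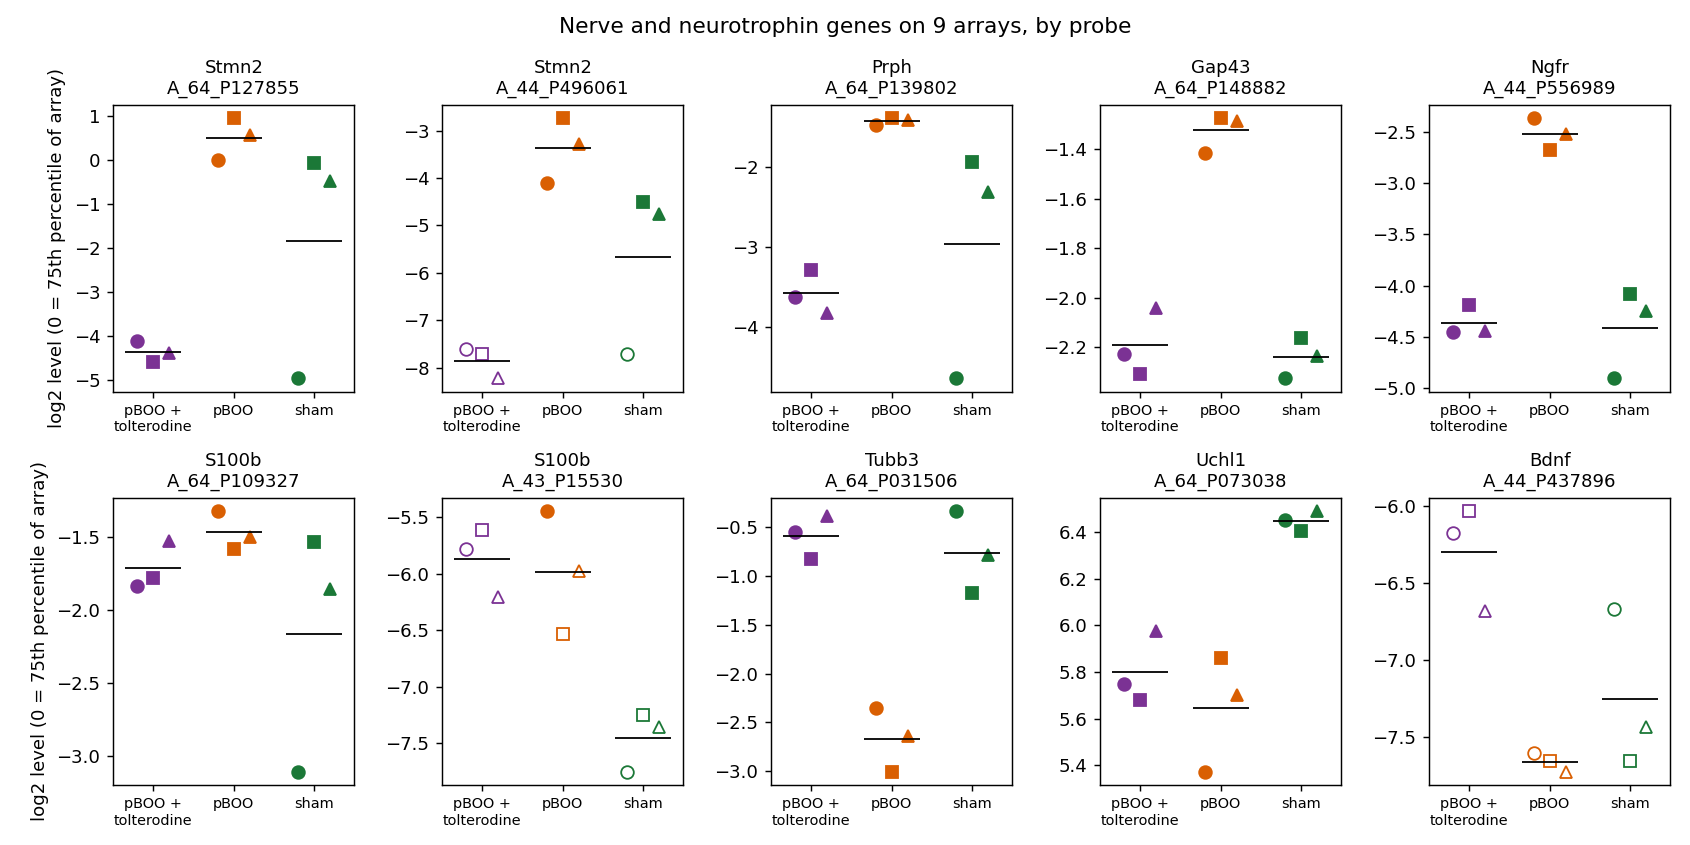
Log2 level of each of the 10 probes (y axis, 0 is the array's 75th percentile, scales differ between panels) on the 3 arrays of each title group, with pBOO+tolterodine at the left, then pBOO, then sham. Circles, squares and triangles are arrays 1, 2 and 3, filled where the probe was well above background, flagged spots are included, and bars are group means. Stmn2 and Prph show sham 1 far below the other sham arrays, while Tubb3 is lowest on the 3 pBOO arrays.

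Promoters of 5 members were found in the RefSeq table of the rat assembly GRCr8: Uchl1, Prph, Tubb3, Bdnf with 6 start sites, and S100b. Prph and Tubb3 are shown because they moved in opposite directions between the groups. Each run is the 250 bases before the annotated start, 5′ to 3′ on the gene's strand. Capitals mark the TATA box (letters TATAAA), the CCAAT box (its 5 letters by name) and the GC box (letters GGGCGG), searched on both strands.
Prph, chr7:132097039-132097288, plus strand: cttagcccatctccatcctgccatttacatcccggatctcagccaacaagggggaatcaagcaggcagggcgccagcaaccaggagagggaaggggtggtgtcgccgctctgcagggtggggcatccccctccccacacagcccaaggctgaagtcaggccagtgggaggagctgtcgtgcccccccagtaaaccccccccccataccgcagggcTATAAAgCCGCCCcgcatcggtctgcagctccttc
Tubb3, chr19:68365437-68365686, plus strand: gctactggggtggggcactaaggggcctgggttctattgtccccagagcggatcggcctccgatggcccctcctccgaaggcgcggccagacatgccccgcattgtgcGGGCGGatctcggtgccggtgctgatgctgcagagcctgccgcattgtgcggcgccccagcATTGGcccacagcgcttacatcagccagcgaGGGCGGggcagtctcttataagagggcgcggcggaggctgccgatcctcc
The Prph run has a TATA box 35 bases and a GC box 28 bases before the start, with no overlap between them. Tubb3 has GC boxes 142 and 50 bases before its start and a CCAAT box at 81 bases. Of 33469 promoters of this length, 12.9% hold the TATA box, 34.0% the CCAAT box and 30.5% the GC box. Uchl1 holds a TATA box at 29 bases and a GC box at 13 bases, and S100b holds the CCAAT box at 3 places. Of the 6 Bdnf promoters, 1 holds a TATA box at 250 bases and another holds GC boxes at 62 and 43 bases. A loose form of the AP-1 motif (letters TGANTCA, with any base at N) was searched too. It occurred in 1 Bdnf promoter, as TGAATCA, beside 6.34% of all promoters. The cyclic AMP element (letters TGACGTCA) and part of the RE1 element (letters GGACAG) were in none of these promoters, beside 1.59% and 18.2% of all. These matches describe the letters and show no binding.

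Among the axonal members, Stmn2 had the widest spread of levels. Stmn2 encodes stathmin-2, a microtubule-binding protein of growing axons. Its brighter probe, A_64_P127855, had levels of -4.11, -4.58 and -4.38 on the tolterodine arrays, 0.0006, 0.97 and 0.57 on the pBOO arrays, and -4.97, -0.06 and -0.48 on the sham arrays. The tolterodine arrays were all far below the pBOO arrays, and sham 1 sat with them while sham 2 and 3 lay just under pBOO. Tolterodine over pBOO was -4.87 (SE 1.08, limma adjusted p = 0.00729), and without sham 1 the SE was 0.25 (adjusted p = 6.72e-06). With scan as a fixed block it was -9.55, a value that rests on sham 1. For pBOO over sham the log2 fold change was 2.35 (SE 1.08, adjusted p = 0.111), and 0.78 without sham 1 (adjusted p = 0.0533), so this comparison passed the threshold in neither fit. Tolterodine over sham was -2.52 (adjusted p = 0.122) with 3 sham arrays and -4.09 (adjusted p = 0.000115) without sham 1. With all 9 arrays it was -4.08 with scan as a fixed block (adjusted p = 0.00062) and -3.35 with scan as a random block (adjusted p = 0.00859).

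A second Stmn2 probe, A_44_P496061, was well above background on 0 of 3 tolterodine arrays, 3 of 3 pBOO arrays and 2 of 3 sham arrays. Its levels were -7.62, -7.72 and -8.23 on the tolterodine arrays, -4.10, -2.73 and -3.28 on the pBOO arrays, and -7.72, -4.51 and -4.77 on the sham arrays. The order of the arrays was close to that of the brighter probe, with sham 1 again beside the tolterodine arrays. The signal was at least 5.46-fold lower in tolterodine than in pBOO (means -7.85 and -3.37, adjusted p = 0.00227 over all probes), where the bound sets dim arrays at the lowest signal well above background. In pBOO over sham its difference was 2.30 (adjusted p = 0.0386) with the measured value of sham 1, which is below detection, and 1.60 with that array at its floor.

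Prph encodes peripherin, an intermediate filament of peripheral neurons. It had levels of -3.62, -3.30 and -3.83 on the tolterodine arrays, -1.47, -1.38 and -1.41 on the pBOO arrays, and -4.65, -1.93 and -2.32 on the sham arrays. Every tolterodine array was below every pBOO array, and sham 1 was again the lowest of the 9. Prph fell by 2.16 in tolterodine against pBOO on the log2 scale (SE 0.59, adjusted p = 0.0178), and the adjusted p was 0.0572 without tolterodine 3. With normexp background correction it was -1.44 (adjusted p = 0.00545), and with scan as a fixed block -4.57. The log2 fold change of pBOO over sham was 1.55 (SE 0.59, adjusted p = 0.0623), and without sham 1 it was 0.70 (adjusted p = 0.0142). Tolterodine over sham was -0.62 (adjusted p = 0.472) and, without sham 1, -1.46 (adjusted p = 0.00102).

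Gap43 encodes a growth cone membrane protein of extending axons. Its levels were -2.23, -2.31 and -2.04 on the tolterodine arrays, -1.41, -1.27 and -1.29 on the pBOO arrays, and -2.33, -2.16 and -2.23 on the sham arrays. The pBOO arrays stood above all the others, and the tolterodine and sham arrays overlapped. Gap43 fell by 0.87 in tolterodine against pBOO (SE 0.11, adjusted p = 0.000471). It rose by 0.92 in pBOO against sham (SE 0.11, adjusted p = 0.000364), and by 0.88 without sham 1. Tolterodine over sham was 0.05 (SE 0.11, adjusted p = 0.777).

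Tubb3 went the other way. It encodes a beta-tubulin that is widely used as a neuron marker and is also made by some dividing and tumour cells. Tubb3 had levels of -0.55, -0.83 and -0.38 on the tolterodine arrays, -2.36, -3.01 and -2.64 on the pBOO arrays, and -0.33, -1.18 and -0.78 on the sham arrays. All pBOO arrays were below all others, with no gap between the tolterodine and sham arrays. It rose by 2.08 in tolterodine against pBOO (SE 0.24, adjusted p = 0.000255) and fell by 1.90 in pBOO against sham (SE 0.24, adjusted p = 0.000442), or by 1.69 without sham 1. Tolterodine over sham was 0.18 (SE 0.24, adjusted p = 0.628).

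Uchl1 encodes a ubiquitin hydrolase abundant in neurons. Its single spot carried an outlier flag on tolterodine 1, pBOO 3, sham 1 and sham 3, so the values below include flagged spots. The levels were 5.75, 5.68 and 5.98 on the tolterodine arrays, 5.37, 5.86 and 5.70 on the pBOO arrays, and 6.45, 6.40 and 6.49 on the sham arrays. The sham arrays were the highest and both obstructed groups overlapped. Before scaling, the signal was 32955 to 55200 on the tolterodine arrays, 49440 to 59917 on the pBOO arrays and 52786 to 69476 on the sham arrays, so there the pBOO and sham arrays overlapped. The spot carried a saturation flag on none of the 9 arrays. Uchl1 was lower by a log2 difference of -0.80 in pBOO than in sham (adjusted p = 0.00254), but by -0.19 after quantile normalization (adjusted p = 0.234) and with an adjusted p of 0.0767 within scan 2. Tolterodine over sham was -0.65 (adjusted p = 0.0145), and this call was lost without tolterodine 1, tolterodine 2 or sham 3 (adjusted p = 0.0560, 0.0584 and 0.0584). Tolterodine over pBOO was 0.16 (adjusted p = 0.410).

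Of the neurotrophin ligands and receptors among the members, Ngfr gave a clear signal and Bdnf did not. Ngfr is the neurotrophin receptor shared by the whole family and is made by Schwann cells as well as neurons. Over 10 spots per array, its levels were -4.47, -4.23 and -4.44 on the tolterodine arrays, -2.36, -2.67 and -2.52 on the pBOO arrays, and -4.91, -4.08 and -4.25 on the sham arrays. The pBOO arrays were above all others. Ngfr fell by 1.86 in tolterodine against pBOO (SE 0.21, adjusted p = 0.000204) and rose by 1.90 in pBOO against sham (SE 0.21, adjusted p = 0.000212), or by 1.65 without sham 1. With normexp background correction these values were -0.93 (adjusted p = 0.00150) and 0.85 (adjusted p = 0.00258). Tolterodine over sham was 0.03 (SE 0.21, adjusted p = 0.921). Bdnf, the ligand brain-derived neurotrophic factor, also has 10 spots and was well above background on 0 of 9 arrays. Its mean signal was -6.29 on the tolterodine arrays, -7.66 on the pBOO arrays and -7.25 on the sham arrays, and no fold is given.

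S100b encodes a calcium-binding protein of Schwann cells and other glia. The brighter probe, A_64_P109327, had levels of -1.83, -1.78 and -1.52 on the tolterodine arrays, -1.32, -1.58 and -1.50 on the pBOO arrays, and -3.11, -1.53 and -1.85 on the sham arrays. The groups overlapped in all 3 comparisons, and sham 1 was the lowest array. Its log2 fold change was -0.24 for tolterodine over pBOO (SE 0.35, adjusted p = 0.599), 0.70 for pBOO over sham (SE 0.35, adjusted p = 0.135; 0.23 without sham 1) and 0.45 for tolterodine over sham (SE 0.35, adjusted p = 0.366). The second S100b probe, A_43_P15530, was well above background on 1 array of the 9.

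Of the 6 tested members, 5 passed the threshold in tolterodine over pBOO (4 lower, 1 higher), where 41.3% of all genes did (26.0% higher, 15.3% lower). In pBOO over sham 3 of 6 passed (2 higher, 1 lower), beside 42.5% of all genes (20.8% higher, 21.7% lower). For tolterodine over sham the count was 0 of 6 by limma, with 1 of 6 at an unadjusted p under 0.05 (Stmn2), beside 24.4% of all genes (17.8% higher, 6.58% lower). Without sham 1 it was 2 of 6, Stmn2 and Prph, both lower, beside 34.8% of all genes. The share called in pBOO over sham is near that of all genes. The groups did not overlap for 5 of 6 members in tolterodine over pBOO (58.7% of all genes), for 5 of 6 in pBOO over sham (55.7%) and for 0 of 6 in tolterodine over sham (43.1%). The comparisons share arrays: the pBOO arrays enter the first and the second, and tolterodine and sham arrays recur in the same way. Median log2 fold changes over all genes were 0.11, -0.04 and 0.09 in the order above.

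**Figure D2:**
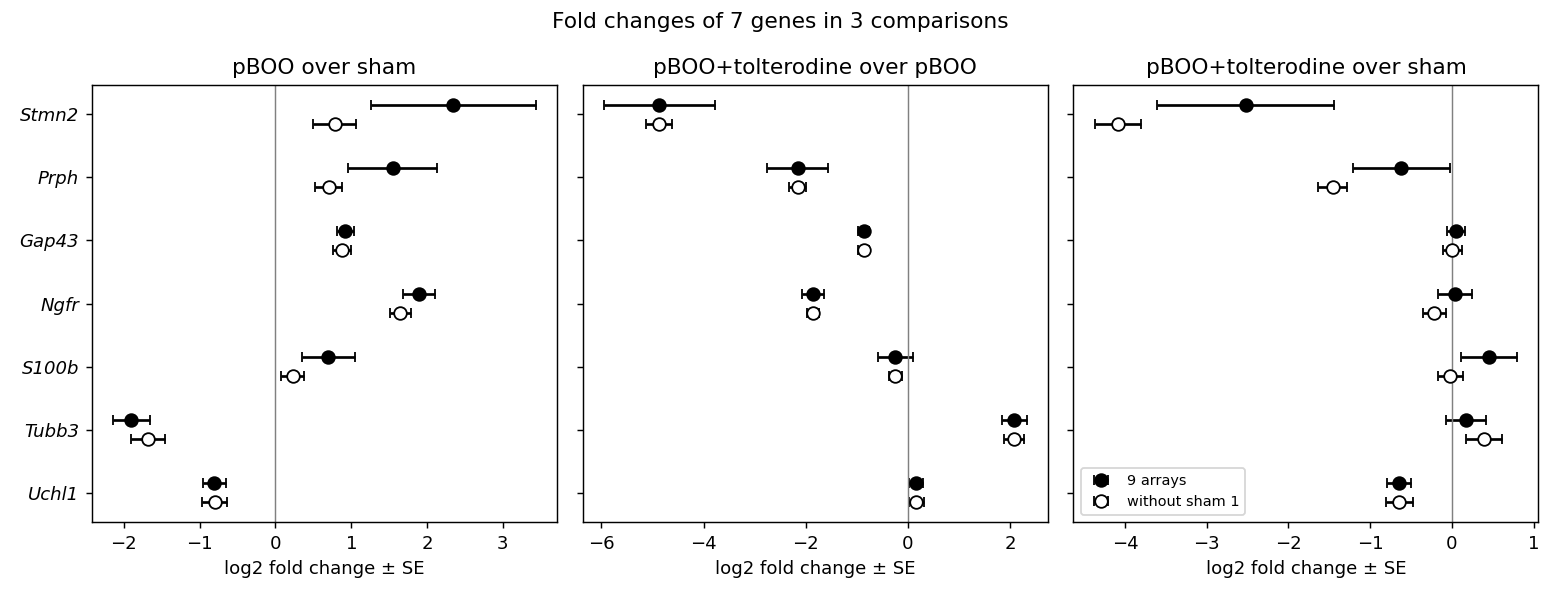
Log2 fold changes with SE (x axis, scales differ between panels) of 7 genes in the 3 comparisons, from all 9 arrays (filled) and without sham 1 (open). Uchl1 includes flagged spots. Stmn2 in pBOO over sham lies at 2.35 with and 0.78 without sham 1, Ngfr at 1.90 and 1.65, and Gap43 at 0.92 and 0.88.

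Within scan 2, which sets the pBOO arrays against sham 1 alone, all 6 members passed the threshold in pBOO over sham, beside 26.1% of all genes. This count rests on sham 1. Stmn2 was 5.48 and S100b 1.64 there, and the lone sham array is assumed to vary as the others do. Within scan 1, tolterodine 1 and 2 against sham 2 and 3, Stmn2 was -4.08 (adjusted p = 0.00157) and Prph -1.34 (adjusted p = 0.00605), and the other 4 tested members did not pass, beside 53.9% of all genes.

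In a wider list of the neurotrophin and GDNF families with related cytokines, adaptors and processing genes, most genes that passed the test had the same signs as Ngfr. Of its 29 genes 22 were tested, Ngfr included. In pBOO over sham 14 were higher and 1 lower (median 0.58), beside 20.8% higher and 21.7% lower over all genes. The 14 include Cntfr and Gfra1, with all sham values below detection, and the 1 is Ntf4, with all pBOO values below detection. In tolterodine over pBOO 2 were higher and 12 lower (median -0.68), beside 26.0% and 15.3% over all genes. The 12 include Ntf3, with all tolterodine values below detection. In tolterodine over sham 3 were higher and 2 lower (median 0.01), beside 17.8% and 6.58% over all genes. Without sham 1 the counts in pBOO over sham were 12 higher and 2 lower (median 0.53). Those in tolterodine over sham were then 5 higher and 4 lower (median -0.14). With normexp background correction the medians were 0.26 in pBOO over sham and -0.33 in tolterodine over pBOO.

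Among the ligands, Ntf3 (neurotrophin-3, which acts through TrkC) had levels of -5.59, -6.14 and -6.37 on the tolterodine arrays, -3.30, -3.14 and -3.13 on the pBOO arrays, and -5.66, -4.87 and -5.16 on the sham arrays. The pBOO arrays stood apart above both other groups, and no tolterodine array was well above background. Ntf3 was at least 6.18-fold lower in tolterodine than in pBOO (means -6.03 and -3.19, adjusted p = 4.75e-05), and it rose by 2.04 in pBOO against sham (adjusted p = 0.000306). Ntf4, neurotrophin-4, was at least 2.31-fold lower in pBOO than in sham (means -6.57 and -4.84, adjusted p = 0.00093). Every pBOO value of Ntf4 was below detection, and the gene entered the fit through 3 sham arrays and 1 tolterodine array. The p-values of Ntf4 here and of Ntf3 in tolterodine against pBOO thus rest on dim signal, and only the bounds are read. Nrtn, the ligand neurturin, was lower in tolterodine than in pBOO (-0.89, adjusted p = 0.00158), and Artn, the ligand artemin, was higher (0.63, adjusted p = 0.00123).

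Several receptors of the list also had their highest levels in pBOO. Ntrk3, the TrkC receptor, had levels of -6.76, -5.91 and -5.73 on the tolterodine arrays, -2.83, -3.71 and -3.12 on the pBOO arrays, and -7.27, -4.65 and -5.12 on the sham arrays. The pBOO arrays were above the rest, and sham 1 was the lowest. Only 1 tolterodine and 2 sham arrays were well above background. Ntrk3 fell by 2.91 in tolterodine against pBOO (adjusted p = 0.00571), or by 2.41 with dim arrays at their floor. It rose by 2.46 in pBOO against sham (adjusted p = 0.0121), or by 1.92 with the floor and by 1.66 without sham 1. Gfra2, the neurturin co-receptor, fell by 1.59 in tolterodine against pBOO (adjusted p = 6.69e-05) and rose by 1.58 in pBOO against sham (adjusted p = 8.69e-05). Cntfr, a cytokine receptor that binds ciliary neurotrophic factor, was at least 3.01-fold higher in pBOO than in sham (means -4.04 and -7.56, adjusted p = 0.000133). Gfra1, the GDNF co-receptor, was at least 2.04-fold higher there (means -4.61 and -6.05, adjusted p = 0.0007). Every sham value of both genes was below detection, so these p-values rest on dim signal and only the bounds are read. Cntfr entered the fit through 3 pBOO arrays and 1 tolterodine array. Sorcs2, a sortilin-family receptor for neurotrophin precursors, rose by 2.00 in pBOO against sham (adjusted p = 2.95e-05). Ntrk2, the TrkB receptor, had a log2 fold change of -0.50 (adjusted p = 0.0893).

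**Figure D3:**
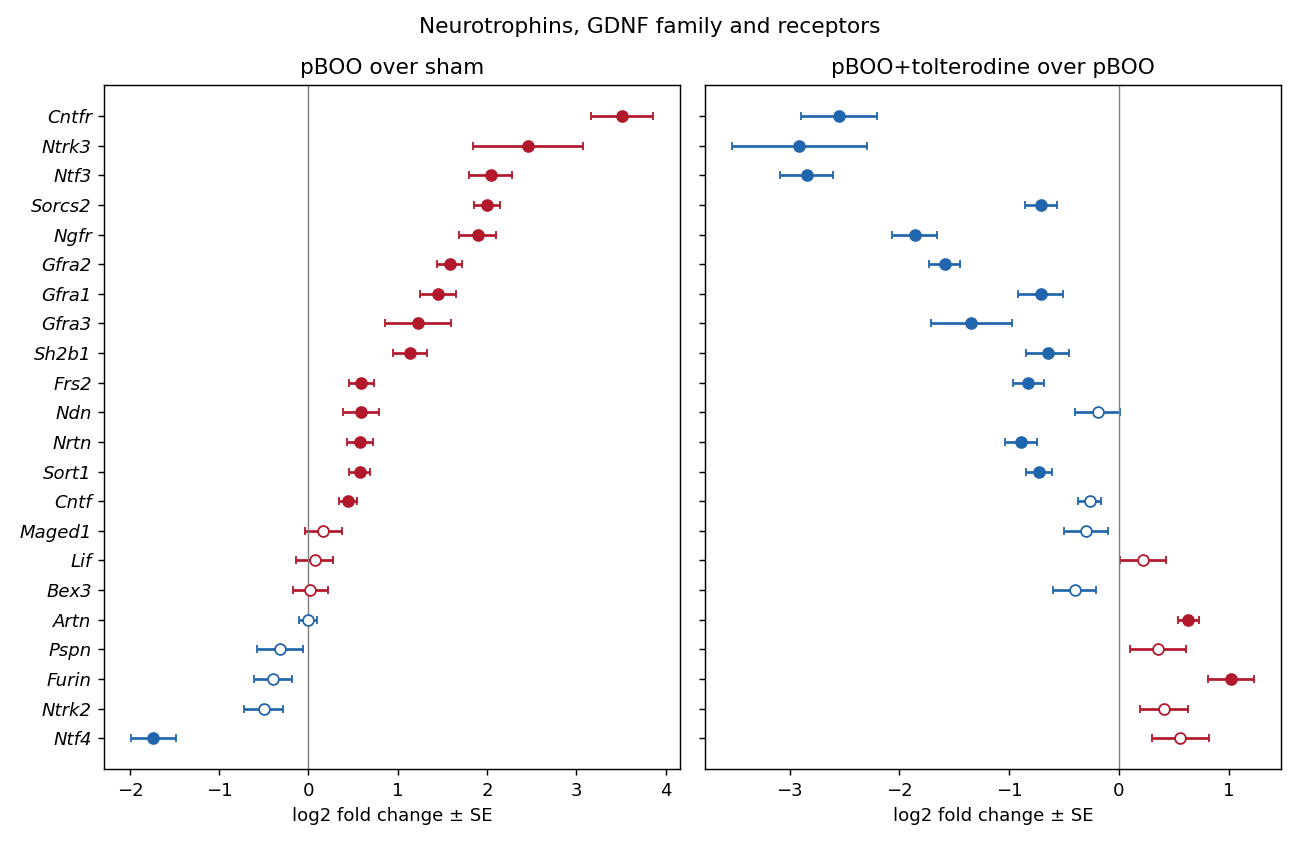
Log2 fold changes with SE (x axis) of the 22 tested genes of the neurotrophin and GDNF family in pBOO over sham (left) and pBOO+tolterodine over pBOO (right), ordered by the left panel and filled where the adjusted p was under 0.05. In the left panel 14 are filled above 0, and in the right panel 12 are filled below 0; fitted values are drawn, also for Cntfr, Gfra1, Ntf3 and Ntf4, whose dim group gives only a bound.

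The neuronal cytoskeleton list, which holds 5 of the members, had 14 of 20 genes tested. In pBOO over sham 6 were higher and 2 lower (median 0.84), beside 20.8% and 21.7% of all genes. The counts in tolterodine over pBOO were 2 higher and 4 lower (median -0.36), beside 26.0% and 15.3% of all genes. These counts include 4 members. Without the members, 10 genes had 5 higher and 1 lower in pBOO over sham (median 0.49), and 1 higher and 1 lower in tolterodine over pBOO (median -0.31). Without sham 1 the whole list had 7 higher and 2 lower in pBOO over sham (median 0.74), and with normexp its median was 0.20. For tolterodine over pBOO it had 2 higher and 6 lower without sham 1. Map1b, a microtubule-associated protein of axons, rose by 2.86 in pBOO against sham (adjusted p = 0.000133), or by 2.73 with dim arrays at their floor. Its rise in tolterodine against sham was 2.47 (adjusted p = 0.00086), or 2.33 with the floor. Map2, a microtubule-associated protein of dendrites, rose by 1.86 in pBOO against sham (adjusted p = 0.00267), or by 1.56 with the floor and by 1.43 without sham 1. Map2 fell by 1.08 in tolterodine against pBOO (adjusted p = 0.0314). Map1b and Map2 were each well above background on 1 of 3 sham arrays.

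Of the presynaptic and autonomic list only 8 of 24 genes were tested. Of its 20 genes with a probe, 8 were well above background on all 9 arrays and 8 on none, Elavl3, Elavl4, Syn1 and Syt1 among these. In the transmitter list 5 of 23 were well above background on all 9 arrays, namely Th, Npy, Slc6a2, Slc18a3 and Calcb. The 6 on none were Dbh, Calca, Nos1, Sst, Chgb and Scg3. Of the 8 tested presynaptic and autonomic genes, 5 were higher and 0 lower in pBOO over sham (median 0.77), beside 20.8% and 21.7% of all genes. The counts were 2 higher and 3 lower in tolterodine over pBOO (median -0.13), beside 26.0% and 15.3%. They were 6 higher and 0 lower in tolterodine over sham (median 0.65), beside 17.8% and 6.58%. Without sham 1, 5 of 7 were higher in pBOO over sham and in tolterodine over sham. Hand2, a transcription factor of sympathetic neurons that other cells also make, rose by 1.84 in pBOO against sham (adjusted p = 1.94e-05). Vamp2, a vesicle fusion protein, rose by 1.29 (adjusted p = 0.000292). In the transmitter list 2 of 11 tested genes were higher and 1 lower in pBOO over sham (median 0.03), beside 20.8% and 21.7% of all genes. Without sham 1, 2 were higher and 2 lower (median -0.22). Ddc, the enzyme that makes dopamine and serotonin, was at 2.60 in pBOO over sham with all 9 arrays (adjusted p = 0.0133). With sham 1, where it was dim, set at its floor the difference was 1.93, and without sham 1 it was 1.67.

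**Figure D4:**
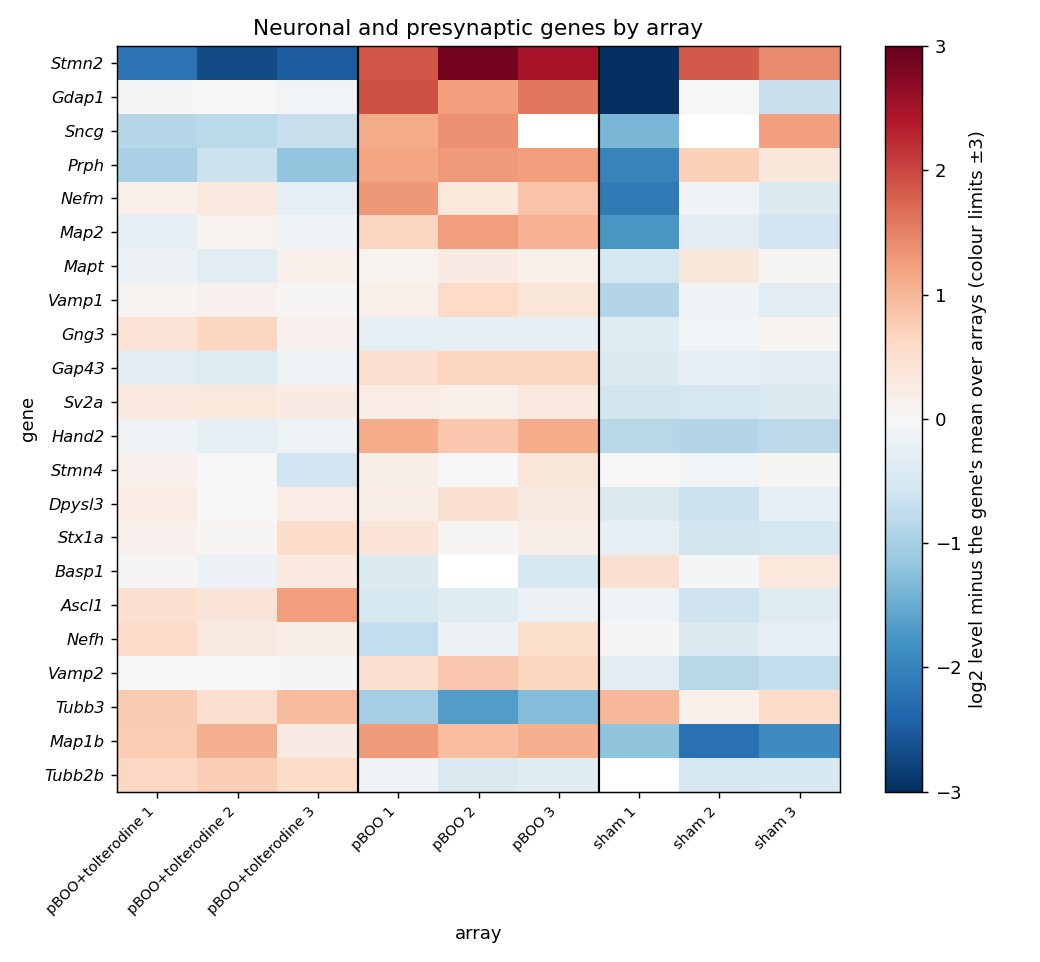
Log2 level minus the gene's own mean over the arrays (colour, limits at 3 log2 units either way) for the 22 tested neuronal cytoskeleton and presynaptic genes (rows, sorted by sham 1 minus the mean of sham 2 and 3) on the 9 arrays (columns, pBOO+tolterodine, pBOO and sham from left to right). Blank cells are missing because the spot was flagged. The top rows, led by Stmn2, are low on sham 1 and high on the pBOO arrays.

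In the Schwann cell and glia list 18 of 25 genes were tested, and pBOO over sham had 5 higher and 2 lower (median 0.14), beside 20.8% and 21.7% of all genes. Ngfr and S100b are in this list. Ncam1, a neural cell adhesion molecule, rose by 1.55 (adjusted p = 0.000147) and Gpr37l1, a glial receptor, by 1.87 (adjusted p = 0.000715). The Schwann cell factor Sox10 had a log2 fold change of -0.21 (adjusted p = 0.613). In tolterodine over pBOO 3 of the 18 were higher and 5 lower (median 0.21), beside 26.0% and 15.3% of all genes. Without sham 1, 7 were higher and 1 lower in pBOO over sham (median 0.12). Axon guidance genes had 9 of 17 higher and 1 lower in pBOO over sham (median 0.68, or 0.063 with normexp), beside 20.8% and 21.7% of all genes. For tolterodine over pBOO 3 were higher and 5 lower (median -0.03), beside 26.0% and 15.3% of all genes. Sema3a, a repellent of sensory axons, was at 1.83 (adjusted p = 0.00254) in pBOO over sham and at -1.89 (adjusted p = 0.00225) in tolterodine over pBOO. Nrg1, a Schwann cell growth factor, had the opposite signs, -1.39 (adjusted p = 0.0138) and 2.01 (adjusted p = 0.00256).

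Markers of other cells moved with these groups. Of 9 tested smooth muscle markers 8 were higher in pBOO over sham (median 2.44), beside 20.8% of all genes. For tolterodine over pBOO 8 of the 9 were lower (median -1.73), beside 15.3% of all genes. The summed signal of 6 of them with values on all arrays ranged over 60.3 to 95.8 on the tolterodine arrays, 92.5 to 105 on the pBOO arrays and 57.6 to 75.2 on the sham arrays, in multiples of the 75th percentile. Most of this sum is Acta2, by far the brightest of the 6. Their mean log2 level, in which each gene counts equally, was -0.13 to 0.09 on the tolterodine arrays. It was 1.78 to 1.93 on the pBOO arrays and -0.87 to -0.25 on the sham arrays. Of 13 macrophage markers 12 were higher in tolterodine over pBOO (median 1.88), beside 26.0% of all genes. For pBOO over sham 9 of the 13 were lower (median -0.79), beside 21.7% of all genes. Their summed signal over 12 genes was 70.2 to 82.4 on the tolterodine arrays, 16.3 to 17.8 on the pBOO arrays and 30.8 to 41.6 on the sham arrays. No marker of these 2 lists was too dim to test, while 3 smooth muscle markers and 1 macrophage marker were lost to flagged spots. With flagged spots kept, Tagln was higher on the pBOO than on the sham arrays (6.15 to 6.42 against 5.24 to 5.64). Des overlapped (6.01 to 6.28 against 5.59 to 6.20) and Actg2 was lower (6.97 to 7.56 against 7.60 to 7.89). For Myh11, Smtn, Synm, Mylk and Tpm1 a brighter probe was lost to flags. These probes too were higher in pBOO than in sham (Myh11 6.03 to 6.27 against 3.38 to 4.94). The part of these 2 lists in the results for the nerve genes was not tested. In bulk tissue, fewer cells of a type and less RNA per cell cannot be told apart.

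Genes whose levels followed each member most closely over the 9 arrays are given by Pearson r as a description, since the arrays form 3 groups and share their hybridisation. Stmn2 was followed most closely by Slc16a7 and Tceal9 (0.994 each), Prph by Igfbp3 and Gpr155 (0.986 and 0.985), and Gap43 by Bcl2 and Gnao1 (0.990 and 0.987). Ngfr was followed by Gucy1b1 and Myom1 (0.997 and 0.996), Tubb3 by H1f5 and Ube2c (0.995 and 0.994), and S100b by Fmo2 and Gpm6a (0.990 and 0.983).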

How the data were processed

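Each array has 1 deposited scanner file of spot intensities, made with Feature Extraction 11.0.1.1 per the file headers and 9.1 per the submitters' processing notes. The deposited processed signal is an intensity, background-subtracted and not normalized between arrays, and the deposited quality flags are other values, 0 or 1. The authors' own downstream steps are not given here.

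Each processed signal was taken as log2 minus its array's 75th percentile over non-control spots. Spots with an outlier flag were set to missing and spots of a probe averaged. A probe was kept if well above background on at least 3 of 9 arrays and unflagged on at least 2 arrays per group, and the brightest kept probe stood for its gene. Accessions were matched to RefSeq GRCr8 symbols (18005 of 30367 probes). limma 3.58.1 (R 4.3.3) fitted all 9 arrays with 1 coefficient per group, with 6 residual degrees of freedom and a median SE of 0.17. The script was tested on simulated data. The number of arrays limits the precision.

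Named genes are the 8 members with all their probes, members of the neurotrophin list, up to 4 genes with the smallest p past the threshold from each other neural list and comparison, and the 2 genes most like each member. Adipoq, Krt20, Sox10, Th, Npy, Slc6a2 and the dim neuronal markers were named after their values were seen, and some genes of the lists are not reported here. Members and lists were chosen with earlier results of these data known. Alternatives were normexp background correction, other scalings and filters, flagged spots kept, other probe rules, only the 2 groups compared, scan (planned as slide) and replicate number as blocks, and leaving out each array.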

Additional observations from a re-analysis of the deposited data

How the results depend on the processing

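Over the members' values, 418 alternatives kept direction and side of the threshold, 28 passed it newly, 6 lost it and 21 turned sign. The calls for Gap43, Tubb3 and Ngfr in pBOO over sham and in tolterodine over pBOO held under each alternative run. Counts over all genes moved with normexp background correction to 3000 (tolterodine over pBOO), 3026 (pBOO over sham) and 961 (tolterodine over sham), from 4563, 4695 and 2695 as reported. With 1 row per probe they were 7903, 8384 and 4903, since more rows were tested. In tolterodine over sham the count was 4484 with scan as a fixed block, 4284 with scan as a random block and 5670 within scan 1, and in pBOO over sham it was 2859 within scan 2. Members past the threshold in pBOO over sham were 6 with scan as a fixed or random block and 6 within scan 2. In tolterodine over sham they were 2 with the fixed block, 1 with the random block, 2 within scan 1 and 2 with flagged spots kept and sham 1 left out. The cause was not tested. Leaving out 1 array at a time gave 3367 to 5198, 3358 to 5042 and 1374 to 3736 genes in the same order of comparisons, and 4 to 5, 3 to 6 and 0 to 2 members. The 6 members came without sham 2 and the 2 members without sham 1.

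Higher calls made up 62.9%, 48.9% and 73.0% of all calls in these comparisons, and 52.7%, 48.8% and 58.2% after quantile normalization. With array median scaling the third was 49.9%. With normexp the second was 39.0%. Array median scaling shifted the median of all genes to -0.11 in pBOO over sham, and normexp to -0.14.

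All but 1 of the sign changes were in tolterodine over sham, in values that passed no threshold. Ngfr was -0.083 with normexp, -0.10 with median scaling, -0.32 with quantile normalization, -0.18 with scan as a fixed block and within scan 1, -0.081 with the random block, -0.04 without tolterodine 2, -0.21 without sham 1 and -0.20 with flagged spots kept as well. Gap43 was -0.089 with median scaling, -0.077 with quantile normalization, -0.068 with the fixed block and within scan 1 and -0.012 with the random block. S100b was -0.11 with the fixed block and within scan 1, and -0.018 without sham 1, with flagged spots kept or not. Leaving out 1 array at a time gave -0.025 to 0.11 for Gap43, -0.030 to 0.39 for Tubb3, -0.21 to 0.20 for Ngfr and -0.018 to 0.77 for S100b. The other was Uchl1 in tolterodine over pBOO, -0.26 with quantile normalization.

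Deviations of same-numbered arrays from their group means had r from -0.08 to 0.18 over 9 pairs, 1 of them over 0.1. With 3 arrays per group, centred on their mean, and sham 1 apart from the other sham arrays, these values cannot exclude pairing by number. With the replicate block the counts were 4225, 4349 and 2331 genes and 5, 3 and 0 members.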
